A study of Homo sapiens with 4 samples.

Results

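SOCS1, SOCS2, SOCS3, SOCS4, SOCS5, SOCS6 and CISH of the suppressor of cytokine signalling family, with PIAS1 and PIAS3 of the protein inhibitor of activated STAT family, were followed in control and PAK1 shRNA mammary epithelial cells. These 9 genes were taken by name from the non-control spots of whole genome arrays that name 27193 genes, and each had 1 probe in 1 spot. Both groups were MCF10A.B2 cells, the non-tumorigenic breast epithelial line MCF10A carrying a Her2 (ErbB2) receptor that the crosslinker AP1510 switches on. There were 2 samples labelled control (Pak1 wild type) and 2 samples expressing a shRNA against PAK1. All 4 had been kept in medium with 5% horse serum, were starved of serum for 3 h and received AP1510 for 15 min. The shRNA is tetracycline inducible according to the study, but the labels name neither an inducer nor a non-targeting shRNA. The methods list wild type cells of this line apart from the cells that carry the shRNA, so the shRNA vector itself cannot be told apart from the loss of PAK1. The labels give the diagnosis as breast cancer and the series text speaks of tumor derived cells, whereas the sample labels and the methods name the cell line. The sources do not say how replicates were made, so p-values measure only the spread between these samples, which may be technical.

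Cytokines of the class I and II receptor families act through JAK kinases, which phosphorylate receptors and STAT transcription factors. STAT dimers then enter the nucleus and switch on target genes, among them genes that end the signal. SOCS proteins and CISH bind phosphorylated receptors or JAKs through an SH2 domain. Through a C-terminal SOCS box they recruit elongins, a cullin and a RING protein, a complex that marks the bound protein for degradation. SOCS1 and SOCS3 also block the kinase directly with a short inhibitory region. PIAS proteins act in the nucleus instead, where they bind STATs and serve as SUMO ligases.

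Promoter sequence is shown for SOCS1 and CISH, the members with the largest rise and the largest fall described below. The sequences are the 250 bases before the gene start in RefSeq (GRCh38.p14), 5′ to 3′ on the strand of the gene. Each window also reaches 50 bases past the start, and these 300 bases were searched on both strands for the STAT dimer motif TTCNNNGAA and the interferon response core GAAANNGAA. The motifs can overlap in their shared GAA, and no member window held both. Capitals mark the matches. The SOCS1 window lies at chr16:11256205-11256454 on the minus strand and the CISH window at chr3:50611775-50612024 on the minus strand.
SOCS1: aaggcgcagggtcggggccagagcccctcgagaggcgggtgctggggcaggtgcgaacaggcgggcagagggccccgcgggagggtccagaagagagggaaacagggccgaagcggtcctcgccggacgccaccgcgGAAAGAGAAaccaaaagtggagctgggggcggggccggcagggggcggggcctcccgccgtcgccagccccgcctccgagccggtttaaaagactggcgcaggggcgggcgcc
CISH: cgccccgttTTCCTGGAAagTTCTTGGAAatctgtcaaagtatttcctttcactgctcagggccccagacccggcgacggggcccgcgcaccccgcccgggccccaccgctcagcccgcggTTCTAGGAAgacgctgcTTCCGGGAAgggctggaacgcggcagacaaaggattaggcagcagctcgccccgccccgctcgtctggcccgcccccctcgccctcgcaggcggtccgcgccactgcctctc
The SOCS1 window held 1 interferon response core, at position -113 from the start, and no STAT dimer motif. The CISH window held 4 STAT dimer motifs and no interferon response core. RefSeq windows were given for 7 of the 9 members (9 windows in all, none for SOCS2 or SOCS5), and the windows of SOCS3, SOCS4, SOCS6, PIAS1 and PIAS3 held neither motif. Of all 35116 promoter windows, 7.66% held the STAT dimer motif and 8.11% the interferon response core. A match is a run of letters and was not measured as a binding site here.

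The array values below are normalized log2 intensities, in which a difference of 1 is a 2-fold change. A level belongs to its probe, so levels of different members are not set against each other. Only for the cell type markers below are intensities of different probes added, and the brightest probes weigh most in those sums. Differences are PAK1 shRNA minus control, with their standard error (SE) and adjusted p from limma (moderated tests across 21990 genes, Benjamini-Hochberg adjustment), and a gene was called at an adjusted p under 0.05. The number of arrays limits the precision, and an exact two-sided permutation test of 2 against 2 samples cannot go below 0.333. Between 78.9% and 83.2% of the probes of an array were flagged as well above background by the scanner software. Replicates differed by a median of 0.093 between the control arrays and 0.081 between the PAK1 shRNA arrays. Before normalization the median spot signal was 501 and 384 units on the control arrays, against 326 and 319 on the PAK1 shRNA arrays. Quantile normalization gives all arrays the same distribution of values, which removes this shift, so small differences below depend on that step. Whether the shift was technical was not tested. Local background above 100 units was seen on 8 and 18 spots of the control arrays, against none for PAK1 shRNA. Spots with flagged background were therefore left out when the background model was fitted. All 9 members were well above background on all 4 arrays, and none was saturated or flagged. In these bulk samples, fewer cells of a type and less RNA per cell cannot be told apart.

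PAK1, the target of the shRNA, read 11.19 and 11.27 in control cells, against 10.44 and 10.51 in PAK1 shRNA cells. Both PAK1 shRNA arrays lay below both control arrays, with a log2 fold change of -0.76 (SE 0.08, adjusted p = 0.00018 by limma), which left 59.2% of the control signal.

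Among the members, SOCS1, SOCS2, SOCS5 and PIAS3 rose in PAK1 shRNA cells, CISH and SOCS4 fell, and SOCS3, SOCS6 and PIAS1 were not called. Thus 4 members were called higher, beside 30.6% of all genes tested, and 2 were called lower, beside 32.0%. Calls in either direction took 6 of the 9 members and 62.5% of all genes. On the normalized values the groups did not overlap in 7 members, which was the case for 82.1% of all genes. Calls of 2-fold or more took in 2 members, SOCS1 and CISH, and 17.9% of all genes. The median log2 fold change of the members was 0.12, against 0.016 over all genes, and the median size without sign was 0.42 against 0.38. The shares of called members were near those of the array as a whole, and the members differed from one another in direction and in size.

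**Figure D1:**
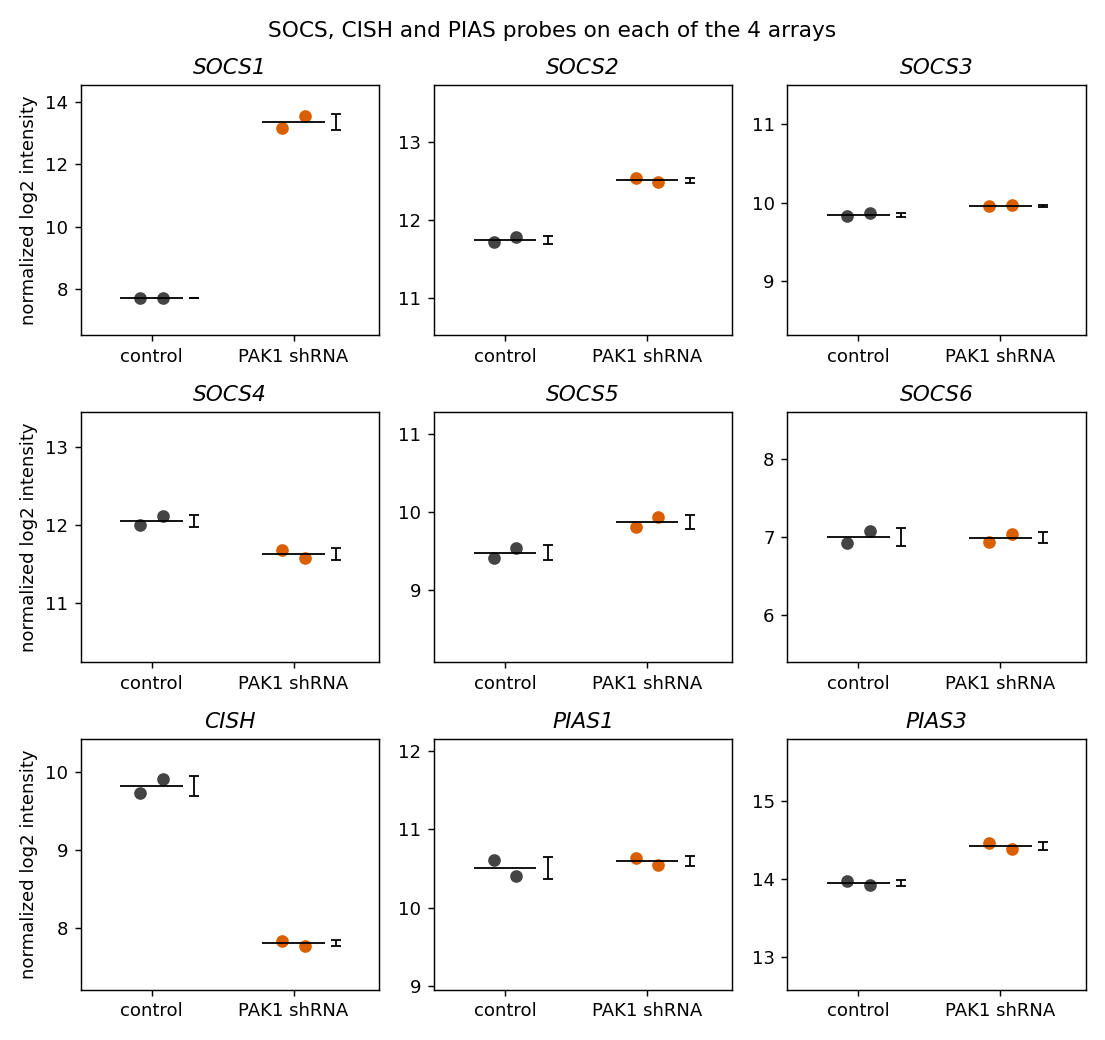
Normalized log2 intensity of the 9 members on each array (points: grey for control, orange for PAK1 shRNA), with the mean of each group as a line and its SD beside it (n = 2). The axis of SOCS1 spans more than the axes of the other panels, which share one span. The points of SOCS1 and CISH are far apart between groups, and those of SOCS6 and PIAS1 overlap.

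SOCS1, which inhibits JAK kinases and restrains interferon and gamma-chain cytokine signalling, carried the largest difference among the members. Its probe (chr16:11348384-11348443, hg19) read 7.72 and 7.72 in control cells, against 13.15 and 13.52 in PAK1 shRNA cells. Both PAK1 shRNA arrays stood far above both control arrays, and the spread was 0.0026 (SD, n = 2) for control and 0.26 (SD, n = 2) for the PAK1 shRNA arrays. This gave a log2 fold change of 5.62 (SE 0.13, 95% interval 5.31 to 5.92, adjusted p = 5.8e-07 by limma), a 49.0-fold rise. By size of rise it was number 37 among the 21990 genes. Before normalization the SOCS1 spot had a mean signal of 241 and 188 units in control cells, 5.88 and 4.90 times the local background. In PAK1 shRNA cells it had 7747 and 10165 units, 161 and 231 times the background. The control signal was thus dim but measured, and the size of the rise moved with the processing: with the background model fitted on all spots it was 4.66, without background correction 5.76, and with the scanner's processed signal scaled to the 75th percentile, which changes both steps, 6.25. This was the member whose promoter window, printed above, held the interferon response core. Whether that match had a part in the rise was not tested.

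CISH, the founding member of the family, binds phosphorylated cytokine receptors at the sites STAT5 uses and is itself a well known STAT5 target. The CISH probe (chr3:50644023-50644082, hg19) read 9.73 and 9.91 in control cells, against 7.84 and 7.78 in PAK1 shRNA cells. Both PAK1 shRNA arrays were below both control arrays by far more than the spread within a group (SD 0.13 and 0.041, n = 2 each). Its log2 fold change was -2.01 (SE 0.09, 95% interval -2.23 to -1.80, adjusted p = 5.6e-06 by limma), so that 24.8% of the control signal was left. By size of fall it was number 430 among the genes tested. The raw signal of CISH was 22.4 and 22.1 times the local background in control cells and 4.52 and 4.21 times in PAK1 shRNA cells. CISH thus moved opposite to SOCS1, and its fall also depended in size on the processing, with -1.40 when the background model was fitted on all spots, -2.12 without background correction and -2.41 with the processed signal scaled to the 75th percentile. Its promoter window held the 4 STAT dimer motifs. STAT5A and STAT5B, the closely related factors that act on CISH, moved in opposite directions on these arrays. STAT5A read 6.99 and 6.95 in control and 8.38 and 8.43 in PAK1 shRNA cells (log2 fold change 1.43, adjusted p = 9.4e-06 by limma), whereas STAT5B read 10.76 and 10.80 in control and 9.67 and 9.68 in PAK1 shRNA cells (-1.10, SE 0.07, adjusted p = 2.5e-05 by limma). STAT5A was singled out after its value was seen. It was dim in control cells, though well above background on all 4 arrays, and unlike STAT5B it was not followed under the alternatives. Whether STAT5 or these motifs had a part in the fall of CISH was not tested.

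SOCS2, known above all as the brake on growth hormone receptor signalling, rose by less. On the control arrays its probe (chr12:93969799-93969858, hg19) read 11.71 and 11.77, and on the PAK1 shRNA arrays 12.53 and 12.48. The groups did not overlap, and the log2 fold change was 0.76 (SE 0.07, 95% interval 0.59 to 0.94, adjusted p = 0.00015 by limma), or 1.70-fold. SOCS2 was called under all alternative settings run, between 0.69 and 0.82.

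SOCS3, the inhibitor that docks on the shared receptor chain gp130 and restrains IL-6 signalling through STAT3, showed a small difference. Its probe (chr17:76353127-76353186, hg19) read 9.83 and 9.86 in control and 9.95 and 9.97 in PAK1 shRNA cells. The groups did not overlap, but the log2 fold change of 0.12 was not called (SE 0.07, 95% interval -0.05 to 0.29, adjusted p = 0.20 by limma). The interval leaves room for a rise of up to 0.29 on the log2 scale, far from the values of SOCS1. SOCS3 was called under none of the alternatives. Before normalization its signal was lower in PAK1 shRNA cells, at 826 and 814 units against 1203 and 961 in control cells.

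SOCS4 and SOCS5, a pair with long N-terminal regions that act on the EGF receptor among other targets, moved in opposite directions. SOCS4 (chr14:55516046-55516105, hg19) read 11.996 and 12.106 in control and 11.68 and 11.58 in PAK1 shRNA cells. It fell by 0.42 on the log2 scale (SE 0.08, adjusted p = 0.0040 by limma), to 74.6% of the control signal. SOCS5 (chr2:46989289-46989348, hg19) read 9.42 and 9.55 in control and 9.81 and 9.94 in PAK1 shRNA cells. It rose by 0.39 (SE 0.09, adjusted p = 0.0073 by limma), or 1.31-fold. After normalization neither pair of groups overlapped. Before it, the SOCS4 spot had 5496 and 4651 units in control and 2750 and 2532 in PAK1 shRNA cells. The SOCS5 spot had 904 and 772 units in control and 747 and 807 in PAK1 shRNA cells, which overlap. The rise of SOCS5 thus rests on the scaling between arrays. Both calls were lost when each gene was tested on its own spread, without the moderation of limma (adjusted p = 0.065 for SOCS4 and 0.092 for SOCS5), and that of SOCS5 also without PAK1 shRNA replicate 2 (log2 fold change 0.32, adjusted p = 0.052 by limma).

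SOCS6, which binds the receptor kinase KIT and adaptor proteins of insulin signalling, was not called. The probe (chr18:67993891-67993950, hg19) read 6.92 and 7.08 in control and 6.94 and 7.04 in PAK1 shRNA cells, and the groups overlapped. Its log2 fold change was -0.0083 (SE 0.09, 95% interval -0.22 to 0.20, adjusted p = 0.94 by limma), with a sign that turned under some scalings, to 0.038 with the processed signal and 0.22 with median centring. The SOCS6 spot gave 2.37 to 2.92 times the local background.

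PIAS1 and PIAS3 were each measured on 1 probe as well. PIAS1, a nuclear STAT inhibitor, read 10.61 and 10.41 in control and 10.64 and 10.55 in PAK1 shRNA cells (chr15:68468820-68468879, hg19). Its groups overlapped, and the log2 fold change of 0.08 was not called (SE 0.09, 95% interval -0.14 to 0.31, adjusted p = 0.46 by limma) and was -0.021 with median centring. PIAS3, best known as an inhibitor of STAT3, read 13.97 and 13.92 in control and 14.46 and 14.39 in PAK1 shRNA cells (chr1:145586275-145586334, hg19). Both PAK1 shRNA arrays were above both control arrays, with a log2 fold change of 0.48 (SE 0.07, 95% interval 0.30 to 0.66, adjusted p = 0.0014 by limma), or 1.40-fold. Under the alternatives PIAS3 stayed called, between 0.45 and 0.66. Before normalization its groups overlapped, with 20804 and 15910 units in control and 19344 and 18589 in PAK1 shRNA cells. The rise of PIAS3 thus rests on the scaling between arrays.

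**Figure D2:**
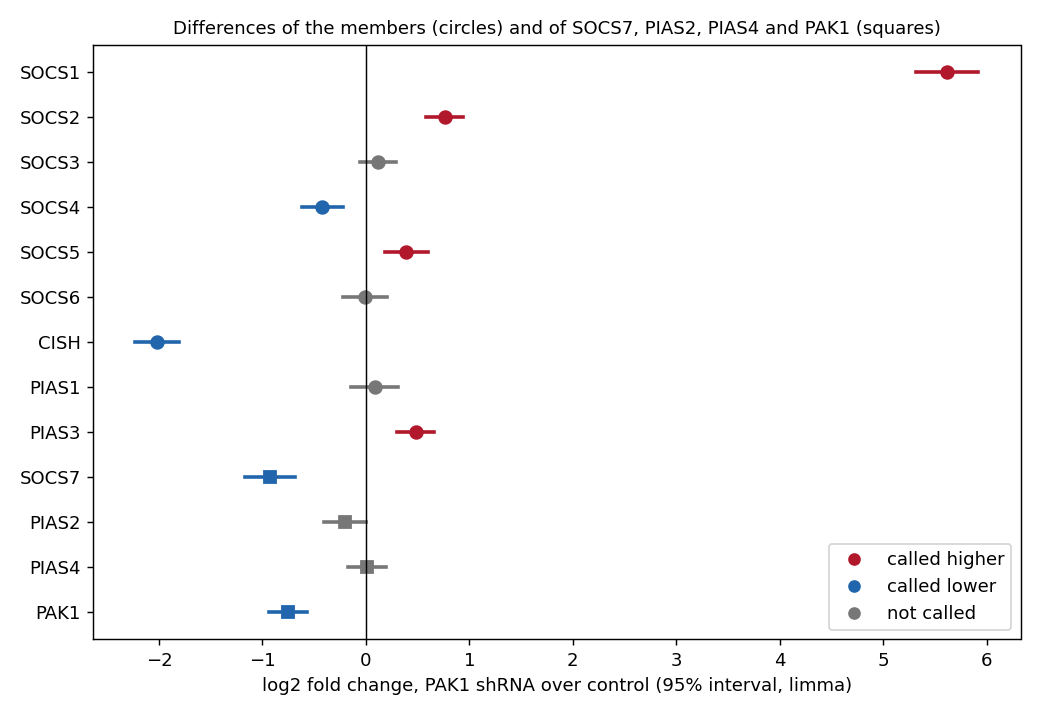
Log2 fold change of PAK1 shRNA over control with its 95% interval from limma, for the 9 members (circles) and for SOCS7, PIAS2, PIAS4 and PAK1 (squares), coloured by call. The intervals of SOCS3, SOCS6, PIAS1, PIAS2 and PIAS4 span 0, and those of SOCS1 (5.31 to 5.92) and CISH (-2.23 to -1.80) lie farthest from it.

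Of the remaining genes of both families, SOCS7 was called lower and PIAS2 and PIAS4 were not called. SOCS7, which binds adaptor proteins and receptors of insulin and prolactin signalling, read 8.20 and 7.96 in control and 7.20 and 7.11 in PAK1 shRNA cells. It fell by 0.93 on the log2 scale (SE 0.10, adjusted p = 0.00027 by limma). Its spot was dim, at 8.17 and 5.08 times the local background in control and 2.87 and 2.56 times in PAK1 shRNA cells. The size of the fall moved with the processing, from -1.33 to -0.54 under the alternatives, and it was called in all of them. PIAS2 had a log2 fold change of -0.20 that was not called (SE 0.08, adjusted p = 0.077 by limma), and it was called with median centring (-0.28, adjusted p = 0.029). PIAS4 had 0.011 (adjusted p = 0.92 by limma) on the probe that stood for the gene, with a sign that turned when control replicate 1 or PAK1 shRNA replicate 1 was left out. The other PIAS4 probes gave -0.16 and 0.32, and neither was called.

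**Figure D3:**
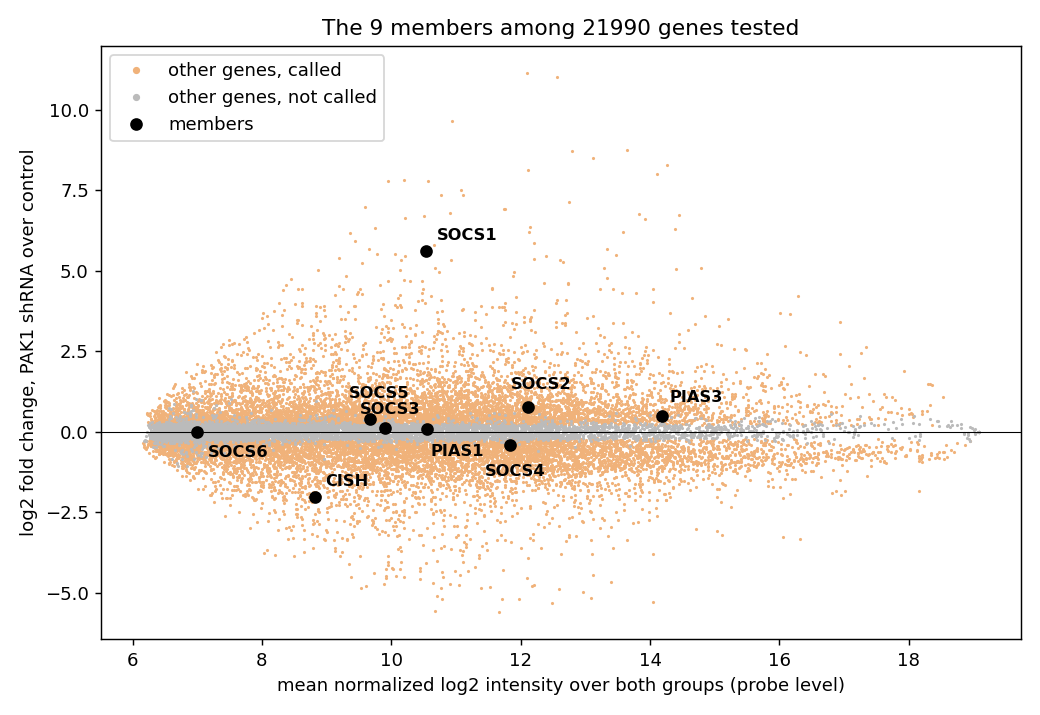
Log2 fold change against the mean normalized log2 intensity of the probe for all 21990 genes tested, with the 9 members in black. SOCS1 lies far above the bulk of the genes at 5.62, CISH lies at -2.01, and the other members lie between -0.42 and 0.76.

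The proteins that SOCS boxes recruit were measured on 6 genes, of which 2 were called higher, 3 lower and 1 not, with a median log2 fold change of -0.26 against 0.016 over all genes. Of all genes tested, 30.6% were called higher and 32.0% lower. The cullins rose: CUL2 by 0.89 (SE 0.10, adjusted p = 0.00030 by limma) and CUL5, the cullin most SOCS boxes take, by 0.24 (SE 0.07, adjusted p = 0.027). CUL5 was no longer called with median centring (adjusted p = 0.14) or without any 1 of the arrays. The elongins and the RING protein RBX1 fell, while the other RING gene listed, RNF7, was not called (-0.14, adjusted p = 0.17 by limma). TCEB2, which encodes elongin B, read 12.05 and 12.06 in control and 11.092 and 10.998 in PAK1 shRNA cells, with a log2 fold change of -1.01 (SE 0.07, adjusted p = 4.8e-05 by limma). RBX1 changed by -0.53 and TCEB1, which encodes elongin C, by -0.38. The call of TCEB1 was lost with the processed signal (adjusted p = 0.063), with cyclic loess (adjusted p = 0.070) and without the moderation of limma (adjusted p = 0.11).

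The SUMO machinery, with which PIAS proteins work as ligases, was tested on 12 genes. Of these 5 were called higher and 7 lower (30.6% and 32.0% over all genes), with a median log2 fold change of -0.45. SAE1, a subunit of the enzyme that activates SUMO, changed by -1.27 (SE 0.10, adjusted p = 5.3e-05 by limma). The proteases that remove SUMO were split. SENP2 (0.78), SENP3 (0.63, with the flagged spot of control replicate 2 left out) and SENP7 (0.58) were called higher, and SENP6 (-0.63) was called lower.

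Other genes known to restrain JAK-STAT signalling were tested on 12 genes. Of these 6 were called higher (beside 30.6% of all genes), 2 lower (beside 32.0%) and 4 not, with a median of 0.18. USP18, which removes ISG15 and holds back the type I interferon receptor, stood out in the list. It read 9.21 and 9.35 in control and 15.09 and 15.21 in PAK1 shRNA cells, a log2 fold change of 5.87 (SE 0.09, adjusted p = 2.7e-07 by limma), or 58.5-fold. The adaptor SH2B3 (0.80) and the deubiquitinase STAMBP (0.70) were called higher. TRIM28, a transcriptional corepressor, had -1.01 (SE 0.08, adjusted p = 7.4e-05 by limma), and the ubiquitin ligase CBLB had -0.48, a call that was lost without the moderation (adjusted p = 0.12).

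The kinases and transcription factors on which these brakes act were tested on 11 genes. Of these 8 were called higher (beside 30.6% of all genes), 1 lower (beside 32.0%) and 2 not, with a median log2 fold change of 0.75. STAT2, which carries the response to type I and III interferon, had a log2 fold change of 3.68 (SE 0.11, adjusted p = 5.2e-06 by limma) with the flagged spot of PAK1 shRNA replicate 2 left out. JAK2, the kinase of many class I receptors, had 3.22 (SE 0.14). The lower gene was STAT5B, given above, and JAK3 and TYK2 were not called (adjusted p = 0.63 and 0.96 by limma).

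Upstream of the brakes, 35 of 40 listed class I and II cytokine receptor genes were tested, with 17 called higher, 9 lower and 9 not, and a median of 0.23. Over all genes the shares were 30.6% higher and 32.0% lower. IL7R (3.87, SE 0.17), IL22RA1 (2.70, SE 0.08) and IL15RA (2.69, SE 0.09) were called higher. EPOR (-1.26, SE 0.07), the erythropoietin receptor, which CISH binds, was called lower, as were IL27RA (-0.79, SE 0.08) and IL11RA (-0.69, SE 0.07). Of 38 listed ligand genes 26 were tested, with 15 called higher, 2 lower and 9 not, and a median of 0.53 that ranged from 0.18 to 0.80 under the alternatives. A probe bright in only 1 group could pass the filter, so the counts and medians of both lists rest partly on that rule. Among the 26 ligands, 22 cleared the background flag on every array. IL28B, IFNB1 and CSF2, called higher, and EPO, called lower, did not. Among the 35 receptors 31 did, but not PRLR and IL10RA (higher) or IL20RA and IL2RB (lower). The ligands named were the lambda interferons IL28A (8.15, SE 0.20; a near-identical copy, IL28B, may share its probe) and IL29 (7.81, SE 0.22), the gp130 cytokine IL6 (6.94, SE 0.26), and IL11 (-1.15, SE 0.09), another gp130 cytokine, which was lower. IL29 read only 6.64 and 6.67 in control cells, and its size ranged from 6.35 to 9.45 under the alternatives. IL6 read 8.12 and 8.43 in control and 14.80 and 15.63 in PAK1 shRNA cells, beside SOCS3, the brake on IL-6 signalling, at 0.12.

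**Figure D4:**
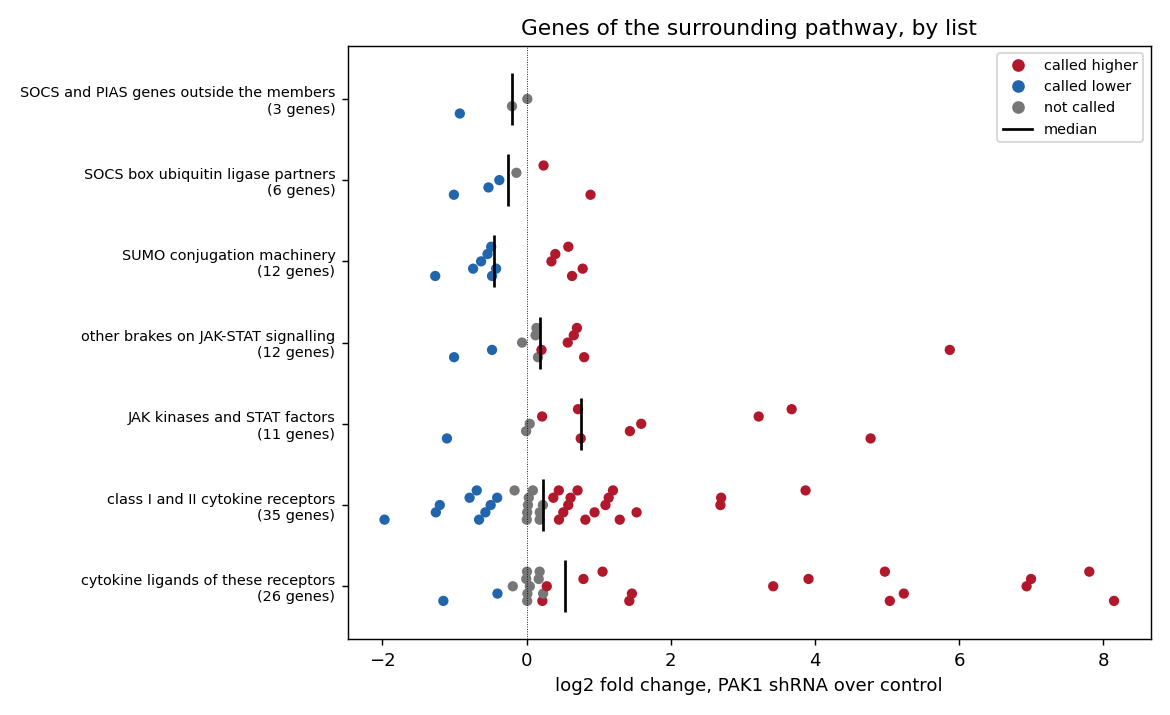
Log2 fold change of each gene tested in 7 lists of the surrounding pathway, coloured by call, with the median of each list as a black line. The medians run from -0.45 in the SUMO machinery to 0.75 in the JAK kinases and STAT factors, and the largest values are those of the cytokine ligands.

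Markers of cell types were read on the same arrays. All 8 mammary epithelial markers were well above background on all 4 arrays, with 3 called higher and 5 lower. Over all genes 30.6% were called higher and 32.0% lower. KRT5, TP63 and KRT14, markers of basal cells, were lower (log2 fold change -1.20, -1.13 and -0.98), as were KRT17 (-0.75) and EGFR (-0.56), while LAMB3 (1.19, with the flagged spot of PAK1 shRNA replicate 2 left out), CDH1 (0.95) and KRT6A (0.28) were higher. The summed intensity of the 7 epithelial markers with complete values was 324780 and 295030 in control and 211110 and 214440 in PAK1 shRNA cells. LAMB3, the brightest of the 8 and the largest rise, is not in that sum. It read 17.11 and 16.93 in control and 18.21 on PAK1 shRNA replicate 1. The lower sums hold for these 7 alone and do not stand for all 8. All 6 leukocyte markers were also well above background on all 4 arrays. CD14, CD79A and ITGAM were called higher (log2 fold change 1.23, 0.47 and 0.46, that of CD14 with the flagged spot of PAK1 shRNA replicate 2 left out), and the defining genes PTPRC and CD3E were not called and read between 7.02 and 7.85. The summed intensity of the 5 leukocyte markers with complete values was 8545 and 7104 in control and 10807 and 10479 in PAK1 shRNA cells. CD14, the brightest of the 6, is not in that sum. It read 14.22 and 14.16 in control and 15.42 on PAK1 shRNA replicate 1. Of 7 endothelial and fibroblast markers 4 were well above background on all arrays, and the fibroblast collagens COL1A2 and COL3A1 were on none. Of the 5 tested, COL1A1 (0.87) and VWF (0.37) were called higher, PECAM1 (-1.56) and PDGFRB (-0.58) lower, and CDH5 was not called. The summed intensity of all 7 was 1671 and 1608 in control and 1714 and 1701 in PAK1 shRNA cells. What part these markers had in the values of the SOCS and PIAS genes was not tested.

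**Figure D5:**
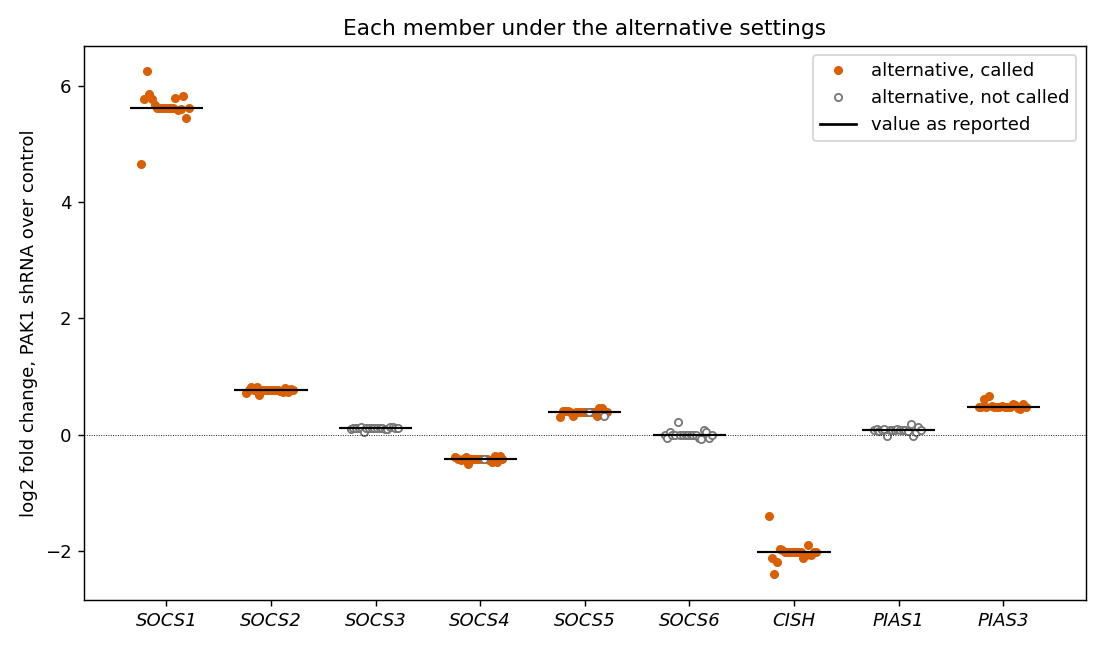
Log2 fold change of each member under the 19 alternative settings (points: filled where called, open where not) and as reported (black line). SOCS1 spans 4.66 to 6.25 and CISH -2.41 to -1.40, always called, while all points of SOCS3, SOCS6 and PIAS1 are open.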

How the data were processed

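RNA of 2 control and 2 PAK1 shRNA samples, 0.5 ug each, was labelled with Cy3 and hybridized to 1-colour Agilent arrays on 1 slide. The deposited files hold spot intensities from Agilent Feature Extraction 9.5.3.1, not normalized between arrays. The authors also gave a table of processed log2 values, used only as an alternative. Its scale and direction matched the scanner values, and its column medians were 9.42, 9.42, 9.40 and 9.40. Coordinates (hg19) and gene names were read from the scanner files, and the names can be old. The accessions of all 9 member probes matched the same symbol in RefSeq.

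Mean spot signals less the local background median were corrected by normexp (offset 50). Its parameters were fitted on spots without a background flag, because a fit on all spots gave background means of -666 and -740 for control, against -10.7 and -10.2 for PAK1 shRNA. Control spots were dropped, outlier spots left out and arrays quantile normalized, as the methods state for normexp and quantile normalization. Repeated spots were averaged by probe. A probe had to be well above background on both arrays of either group, and each gene was read from its brightest such probe. Tests were run with limma 3.58.1 (lmFit, eBayes; R 4.3.3), and genes were called at 0.05 after adjustment by Benjamini and Hochberg. At least 1 unflagged value per group was required, a rule chosen after results with complete values only had been seen, and 967 genes tested had a value left out. The tests were checked on simulated data.

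The members and lists were chosen with earlier results of these data known. Named were the members, PAK1, SOCS7, PIAS2 and PIAS4, and from each list up to 3 rises and 3 falls, the largest among called genes well above background on all arrays. Some genes that this rule or the lists take in are not reported here. Lists are described by counts and medians, with no test of their own. Alternatives covered the background correction, signal, normalization, filter, probe rule, flags, test, threshold, replicate block, each array left out and the authors' values. With 1 slide, no slide block could be fitted.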

Additional observations from a re-analysis of the deposited data

How the results depend on the processing

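At an adjusted p under 0.05, SOCS1, SOCS2, CISH, PIAS3 and PAK1 were called in the same direction under all 19 alternatives, SOCS4 under 18 and SOCS5 under 17. Of the 190 values of PAK1 and the members, 181 kept direction and call, 3 lost their call and 6, all of SOCS6 and PIAS1, which were not called, turned sign; the cause was not tested. The processed signal gave SOCS6 0.038, and median centring gave SOCS6 0.22 and PIAS1 -0.021. The median of all genes was then 0.11 and 0.14 in place of 0.016, and less that median SOCS6 had -0.074 and 0.085, PIAS1 had -0.056 and -0.16, and SOCS3 0.0052 and -0.092. Leaving out 1 array at a time gave -0.084 to 0.071 for SOCS6, -0.015 to 0.18 for PIAS1, -0.030 to 0.051 for PIAS4 and 0.32 to 0.45 for SOCS5 (adjusted p = 0.052 by limma at the lowest, without PAK1 shRNA replicate 2); the left-out group then had a lone sample, assumed to vary like the other group. The unpaired t-test called 4179 genes higher and 4553 lower, and 1 member lower. It left SOCS4 at -0.42 (adjusted p = 0.065) and SOCS5 at 0.39 (adjusted p = 0.092). The methods name limma for the arrays and the unpaired t-test for statistics in general. At an unadjusted p under 0.05, the t-test called 11533 genes and 6 members, and after Benjamini-Hochberg adjustment 8732 genes and 4 members. A 2-fold threshold beside the adjusted p left 1936 genes higher and 1999 lower, and 1 member in each direction. With complete values only, added after seeing the data, 6544 genes were higher and 6797 lower, with the same counts of members. Of 617 values of the other named genes under the alternatives, 605 kept direction and call, 1 gained a call, 9 lost it and 2 turned sign. Among the lists, the count of higher JAK and STAT genes was 5 without PAK1 shRNA replicate 1 and with the t-test, that of higher SUMO genes 3 without control replicate 1 and 2 with the t-test, and that of higher receptors 9 with the t-test. Of 133 list medians under the alternatives, 35 moved by more than the median SD between replicates and none changed sign; that of the ligands ranged from 0.18 to 0.80 and that of the receptors from 0.13 to 0.48. With the replicate block, 6913 genes were higher and 7117 lower, 4 and 2 members were called, and SOCS1 had 5.62 (adjusted p = 8.4e-11 by limma). The block changed no call of a member, and arrays with the same number did not deviate together (r = 0.012 across 21023 genes, which are not independent replicates), so the numbers were not taken as pairs.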
